A study of Homo sapiens with 4 samples.

Results

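The genes described here carry out HLA class I antigen presentation, and they were measured in TU-177, an established cell line of human laryngeal squamous cell carcinoma (LSCC). They were taken as a list of names, with earlier results of these data known, namely HLA-B, HLA-C, HLA-E, B2M, TAP1, TAP2, TAPBP, ERAP1 and CALR, and all 9 were found among the 28729 genes of the table by matching Ensembl identifiers to gene symbols. All 9 also passed the filter on low values, a mean FPKM of at least 1, which 12645 genes passed. The RNA came from 4 cultures. In the negative control group (NC, n = 2) the cells had received a lentivirus with a control shRNA, and in the SKA3 knockdown group (SKA3-KD, n = 2) a lentivirus with an shRNA against SKA3, a subunit of the spindle and kinetochore associated complex that holds chromosomes to spindle microtubules in mitosis. Both groups share the vector, and puromycin was added to both 48 h after transduction, so every library is from puromycin-resistant cells. The labels give neither the number of shRNAs nor whether the replicates were separate transductions, and p-values therefore measure only the spread between these samples, which may be technical. The methods of the study also describe guide RNAs with Cas9 for stable SKA3 knockdown, whereas the sample labels name an shRNA. Values are FPKM, read counts divided by gene length and by library size. Levels of different genes can be set side by side only as far as those lengths match the transcripts present.

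HLA class I molecules show peptides from inside the cell to CD8+ T cells and natural killer cells. A polymorphic heavy chain, such as HLA-B or HLA-C, folds in the endoplasmic reticulum with the invariant light chain beta-2 microglobulin, made from B2M. The proteasome cuts cytosolic proteins into peptides, the TAP1 and TAP2 transporter carries these into the endoplasmic reticulum, ERAP1 trims them, and tapasin (TAPBP) with calreticulin (CALR) holds the empty molecule until a peptide fits. Tumours are known to lower parts of this route, and interferon gamma is known to raise most of it.

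HLA-B, HLA-C, HLA-E, TAP1, TAP2 and TAPBP all lie on chromosome 6, in or beside the major histocompatibility complex, while B2M is on chromosome 15, ERAP1 on chromosome 5 and CALR on chromosome 19. The class I heavy-chain and B2M promoters are known to share a module in which a CRE-like half-site (TGACG) and an inverted CCAAT box are contacted by CREB and NF-Y factors, together with RFX and the coactivator NLRC5. The 250 bases before the annotated start of 3 of the 5 genes that were lower in both SKA3-KD libraries (HLA-B, HLA-C, B2M) and of 2 of the 3 that were higher in both (TAP1, CALR) are printed for that reason, from RefSeq in build GRCh38.p14, 5′ to 3′ on the strand of the gene. Of the 9 genes, 8 matched the RefSeq promoter table, all but HLA-E. Capitals mark matches, on either strand, to CCAAT, to TGACG, to the interferon response element core TTCNNTTTC, to its shorter form TTCNNTTC and to the enhancer A core GGGATTCC. No match to the letters GGGANTTCC, searched for as kappa B, was found in these 5 windows. Other spellings of a kappa B site were not searched. The printed TAP1 window holds the similar letters gggactttcc, and the printed B2M window holds the same letters on the other strand (ggaaagtccc). The lack of a match therefore does not show that kappa B sites are absent.
HLA-B, chr6:31357180-31357429, minus strand: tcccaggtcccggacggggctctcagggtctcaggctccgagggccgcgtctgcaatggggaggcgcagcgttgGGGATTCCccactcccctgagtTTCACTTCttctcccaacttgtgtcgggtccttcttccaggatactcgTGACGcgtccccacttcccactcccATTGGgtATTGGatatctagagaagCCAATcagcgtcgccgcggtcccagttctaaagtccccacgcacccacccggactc
HLA-C, chr6:31272093-31272342, minus strand: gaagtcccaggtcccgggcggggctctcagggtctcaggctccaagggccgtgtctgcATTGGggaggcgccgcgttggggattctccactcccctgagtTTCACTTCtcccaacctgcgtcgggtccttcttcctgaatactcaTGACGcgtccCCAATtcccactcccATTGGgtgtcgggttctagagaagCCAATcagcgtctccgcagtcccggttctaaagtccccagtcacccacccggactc
B2M, chr15:44711267-44711516, plus strand: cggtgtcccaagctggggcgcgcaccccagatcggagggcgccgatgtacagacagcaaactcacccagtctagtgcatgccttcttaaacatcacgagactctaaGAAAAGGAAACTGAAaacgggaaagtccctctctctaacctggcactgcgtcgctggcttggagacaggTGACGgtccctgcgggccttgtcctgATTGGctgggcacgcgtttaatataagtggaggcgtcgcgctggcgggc
TAP1, the second of its annotated starts, chr6:32853705-32853954, minus strand: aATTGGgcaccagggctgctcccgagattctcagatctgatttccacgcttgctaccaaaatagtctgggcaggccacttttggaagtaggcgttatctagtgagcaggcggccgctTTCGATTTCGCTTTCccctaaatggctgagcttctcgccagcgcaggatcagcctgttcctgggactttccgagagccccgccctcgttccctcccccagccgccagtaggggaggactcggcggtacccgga
CALR, chr19:12938359-12938608, plus strand: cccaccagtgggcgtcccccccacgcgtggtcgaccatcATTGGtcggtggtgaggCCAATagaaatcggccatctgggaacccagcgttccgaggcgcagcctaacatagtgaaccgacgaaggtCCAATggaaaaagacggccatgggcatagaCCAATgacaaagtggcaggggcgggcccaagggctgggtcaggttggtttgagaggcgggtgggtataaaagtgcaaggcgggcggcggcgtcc

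In HLA-B the CRE half-site lay at -106 to -102 from the start, and it was followed by inverted CCAAT boxes at -81 to -77 and -74 to -70 and a direct one at -56 to -52. HLA-C held the half-site at -105 to -101 and its nearest inverted CCAAT box at -80 to -76, the same spacing as in HLA-B. B2M had the half-site at -75 to -71 and 1 inverted CCAAT box at -49 to -45. Matches to the interferon response element core overlapped each other in B2M, from -144 to -130, and in TAP1, from -133 to -119. The printed TAP1 window also held 1 inverted CCAAT box, and the window of the other annotated TAP1 start held 0 matches to any of the motifs. CALR held 4 CCAAT boxes and none of the other motifs. Among the windows not printed, TAP2, also lower in both SKA3-KD libraries, held 1 TGACG and 0 CCAAT boxes. It also held 1 interferon response element core and 1 shorter form. TAPBP held 2 such cores and 1 GGGANTTCC, with 0 CCAAT boxes and 0 TGACG. ERAP1 held 1 CCAAT box and 1 shorter form at its first start, 2 shorter forms at its second, and 0 TGACG at either. Among 34943 RefSeq promoter windows of 250 bases, 32.0% held CCAAT, 21.2% TGACG, 6.87% TTCNNTTTC, 1.59% GGGANTTCC, 16.2% TTCNNTTC and 0.947% GGGATTCC. The last 2 motifs were added after the sequences had been seen. These are matches of letters and not measured binding.

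SKA3 itself, the targeted gene, was at 9.40 and 9.64 FPKM in NC 1 and NC 2 and at 3.77 and 4.12 FPKM in SKA3-KD 1 and SKA3-KD 2. The groups did not overlap, and SKA3 fell by 58.6% in mean FPKM (log2 fold change −1.09 ± 0.07, SE; limma adjusted p = 0.00806). The library sizes behind the FPKM values, recovered from the size of 1 read, were between 9015056 and 11966130. The cell type label was checked against its markers. KRT17 was abundant, with 45.6 and 49.1 FPKM in NC and 29.4 and 35.7 FPKM in SKA3-KD, and fell (log2 fold change −0.53 ± 0.11, limma adjusted p = 0.0396). SFN was abundant too (133 to 155 FPKM), but the squamous keratins KRT5, KRT6A and KRT14 were at 0 or at most 0.103 FPKM in every library, TP63 at most 0.580 FPKM and CDH1 at most 0.447 FPKM, so most defining squamous epithelial markers were close to absent. Of 11 immune cell markers 8 were in the table and summed to between 1.002 and 1.83 FPKM per library, with the leukocyte gene PTPRC at 0 in 3 libraries and LYZ at 0 in all 4. The fibroblast and endothelial markers summed to 15.4 and 15.6 FPKM in NC and 8.94 and 9.60 FPKM in SKA3-KD. Most of this fall came from DCN, a matrix proteoglycan (log2 fold change −1.46 ± 0.07, limma adjusted p = 0.0065). Of the 3 such markers tested, 2 had a negative log2 difference and 1, PDGFRB, a positive one. PDGFRB differed by 0.34 ± 0.14 (limma adjusted p = 0.165, limma voom adjusted p = 0.0213). It was above DCN in both SKA3-KD libraries. The part of these marker changes in the results on class I genes was not tested.

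The first question was how abundant each component was. CALR and B2M were by far the most abundant of the 9, with mean levels of 520.4 and 293 FPKM over the 4 libraries, which placed them 47th and 111th among the 12645 genes tested. TAPBP followed at a mean of 32.1 FPKM, HLA-C at 28.96, HLA-E at 26.3 and HLA-B at 22.3. The ranges over the 4 libraries of neighbouring genes in this stretch overlapped, so these ranges did not order neighbours. The TAPBP range (29.9 to 33.9 FPKM) lay above those of HLA-E (25.5 to 27.9 FPKM) and HLA-B (18.0 to 26.4 FPKM). HLA-C was above HLA-B within every library. TAP1 (mean 11.6 FPKM), TAP2 (2.98 FPKM) and ERAP1 (1.74 FPKM) were lower, and their ranges were separate from one another and from those above. B2M therefore exceeded the sum of HLA-B, HLA-C and HLA-E in every library. The ratio of B2M to that sum was 4.10 and 3.74 in NC 1 and NC 2 and 3.71 and 3.50 in SKA3-KD 1 and SKA3-KD 2. Like the other levels compared between genes, this ratio depends on the gene lengths used.

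**Figure D1:**
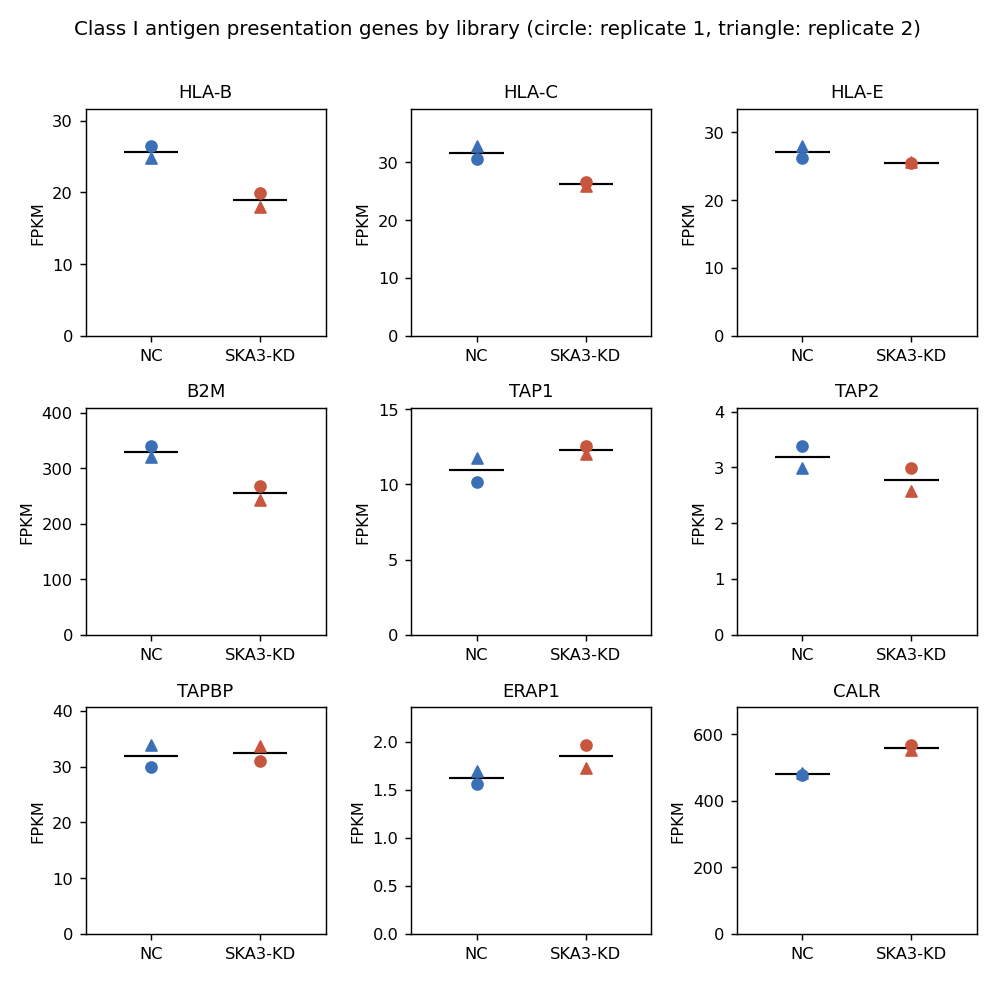
FPKM (vertical axis, from 0, a separate scale for each gene) of the 9 class I antigen presentation genes in the NC and SKA3-KD libraries; each point is 1 library and each bar the mean of 2. HLA-B, HLA-C and B2M sit lower in both SKA3-KD libraries, CALR sits higher in both (569 and 552 against 477 and 484), and TAPBP overlaps between the groups.

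The comparison of SKA3-KD with NC then asked which steps of presentation changed with knockdown. HLA-B fell by 25.9% and B2M by 22.8% in mean FPKM, HLA-C leaned the same way without passing the test, and HLA-E, the transporter, tapasin and ERAP1 showed differences within or close to the spread between libraries. CALR leaned higher. Of the 9 genes, 2 passed the limma threshold (adjusted p of 0.05) as lower and 0 as higher, where 6.11% of all genes tested were lower and 6.16% higher. At an unadjusted p under 0.05 the counts were 3 lower and 1 higher, against 15.1% and 16.2% of all genes, and limma voom on the recovered reads also gave 3 lower (HLA-B, HLA-C, B2M) and 1 higher (CALR), against 12.2% and 13.6%. The median log2 fold change of the 9 genes was −0.08 and that of all genes tested was 0.01, with quartiles of −0.16 and 0.17. In bulk RNA, fewer cells of a type and less RNA per cell cannot be told apart.

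Among the heavy chains, HLA-B, which presents peptides to CD8+ T cells, had 26.4 and 24.8 FPKM in NC 1 and NC 2 and 19.96 and 18.0 FPKM in SKA3-KD 1 and SKA3-KD 2. Both SKA3-KD libraries were below both NC libraries, and the gap between the groups was wider than the gap within either. The mean fell from 25.6 ± 1.13 to 19.0 ± 1.40 FPKM (SD, n = 2 each), a log2 fold change of −0.42 ± 0.08 (SE, 95% interval −0.61 to −0.22) with a limma adjusted p of 0.035. The recovered reads behind these values numbered 952, 674, 612 and 639. With any 1 of the 4 libraries left out, the log2 fold change of HLA-B was between −0.49 and −0.34 with an adjusted p between 0.0899 and 0.142, and it also missed the threshold without the filter (adjusted p = 0.0936) and without the trend (adjusted p = 0.0685).

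HLA-C, which also presents peptides and is a main ligand of the killer cell immunoglobulin-like receptors, was at 30.5 and 32.7 FPKM in the NC libraries and at 26.7 and 25.9 FPKM in the SKA3-KD libraries. The groups were again separate, with the lower NC value above the higher SKA3-KD value. The means were 31.6 ± 1.56 and 26.3 ± 0.525 FPKM, and the log2 difference of −0.26 ± 0.06 (95% interval −0.42 to −0.09) missed the threshold in limma (adjusted p = 0.0633) and passed it in limma voom (adjusted p = 0.0251). HLA-E is a non-classical heavy chain that offers leader peptides of other class I molecules to the NKG2A receptor of natural killer cells. It measured 26.2 and 27.9 FPKM in NC and 25.5 and 25.6 FPKM in SKA3-KD. The SKA3-KD values lay just under the NC values, at a distance smaller than the gap between the NC libraries, and the log2 difference was −0.08 ± 0.06 (95% interval −0.24 to 0.08, limma adjusted p = 0.428).

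The heavy chains were also set against one another within each library. The ratio of HLA-B to HLA-E was 1.01 and 0.889 in NC 1 and NC 2 and 0.782 and 0.704 in SKA3-KD 1 and SKA3-KD 2, and the ratio of HLA-C to HLA-E was 1.16 and 1.17 against 1.04 and 1.01. Each ratio was lower in both SKA3-KD libraries, while the 95% intervals of the 3 log2 differences overlapped. In NC the ranges of HLA-B and HLA-E overlapped, and in SKA3-KD the HLA-B values were all below those of HLA-E. The sum of the 3 heavy chains, which depends less on how reads are divided between similar genes, was 83.2 and 85.5 FPKM in NC and 72.1 and 69.5 FPKM in SKA3-KD, a difference in means of −16.0%. An exact two-sided permutation test of this sum, and of each ratio, gave p = 0.333, the smallest value that 2 against 2 libraries allow. In GENCODE 29, 2.72% of the 50-base windows of HLA-B, 5.38% of HLA-C and 4.34% of HLA-E also occur in other genes, so some reads could have been assigned to a relative. The HLA-B and HLA-C gene models also overlap each other through a long HLA-B transcript.

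The light chain gene B2M was at 341 and 319.5 FPKM in the NC libraries and at 267 and 243 FPKM in the SKA3-KD libraries. No SKA3-KD value reached an NC value. Its mean went from 330.2 ± 15.0 to 255 ± 17.4 FPKM, with a log2 fold change of −0.37 ± 0.07 (SE, 95% interval −0.56 to −0.19, limma adjusted p = 0.0374). B2M shared no 50-base window with any other gene and had the deepest support among the lower genes, with 8573 to 12849 recovered reads per library. It missed the threshold without the filter on low values (adjusted p = 0.133), without the trend (adjusted p = 0.0806) and after quantile normalization (log2 fold change −0.27, adjusted p = 0.0715). With any 1 library left out its log2 fold change was between −0.44 and −0.30 with an adjusted p between 0.0914 and 0.148.

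The transporter subunits pointed in different directions, and neither passed the test. TAP1, which with TAP2 forms the peptide channel, was at 10.1 and 11.8 FPKM in NC and 12.6 and 12.0 FPKM in SKA3-KD. Both SKA3-KD values were higher, yet the NC libraries differed from each other by 0.20 on the log2 scale, more than the difference between the groups (0.16 ± 0.09, 95% interval −0.07 to 0.38, limma adjusted p = 0.296). TAP2 read 3.39 and 2.99 FPKM in NC and 2.99 and 2.58 FPKM in SKA3-KD. The higher SKA3-KD library all but touched the lower NC library, and the log2 difference was −0.15 ± 0.11 (95% interval −0.43 to 0.13, limma adjusted p = 0.41). The ratio of TAP1 to TAP2 was 2.99 and 3.94 in NC and 4.21 and 4.66 in SKA3-KD, so TAP1 was the more abundant subunit in every library and the ratio was higher in both SKA3-KD libraries. For TAP2, 31.3% of the 50-base windows are shared with other annotated genes, and TAP1 overlaps PSMB9 and PSMB8-AS1 on the opposite strand. Since use of strand in the counting is not given in the sources used here, reads of such pairs cannot be told apart.

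**Figure D2:**
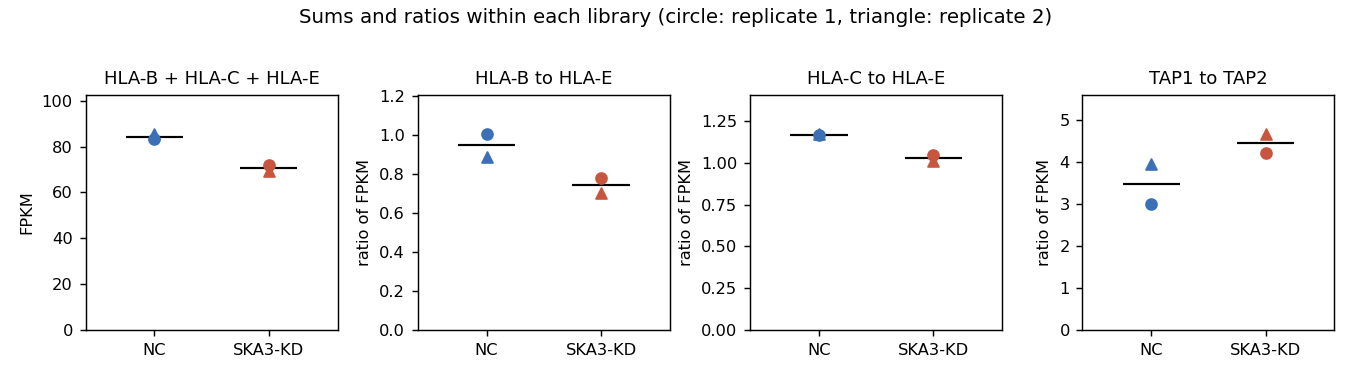
The summed FPKM of HLA-B, HLA-C and HLA-E, and ratios of FPKM between pairs of genes, in each library (vertical axes from 0; points are libraries and bars the means of 2). The sum and both ratios to HLA-E are lower in both SKA3-KD libraries (sum 72.1 and 69.5 against 83.2 and 85.5 FPKM), and the ratio of TAP1 to TAP2 is higher in both.

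In the loading complex, tapasin did not separate the groups. TAPBP, the bridge between the transporter and the empty class I molecule, was at 29.9 and 33.9 FPKM in NC and at 31.0 and 33.7 FPKM in SKA3-KD. Replicate 2 was the higher library in both groups and the ranges overlapped almost fully (log2 difference 0.02 ± 0.09, 95% interval −0.20 to 0.24, limma adjusted p = 0.884). CALR, the calcium-binding chaperone that holds glycosylated heavy chains, was at 477 and 484 FPKM in NC and at 569 and 552 FPKM in SKA3-KD. The libraries within each group lay close together and the groups were far apart by comparison. The means were 480.2 ± 4.74 and 561 ± 11.8 FPKM, a difference of 16.7%, and the log2 difference of 0.22 ± 0.05 (95% interval 0.09 to 0.35) was just outside the threshold in limma (adjusted p = 0.0523) and inside it in limma voom (adjusted p = 0.0102). ERAP1, the aminopeptidase that shortens peptides to the length class I molecules bind, measured 1.56 and 1.69 FPKM in NC and 1.97 and 1.73 FPKM in SKA3-KD. These rest on 121 to 162 recovered reads per library, the NC 2 and SKA3-KD 2 values were nearly equal, and the log2 difference was 0.12 ± 0.13 (95% interval −0.20 to 0.44, limma adjusted p = 0.57). ERAP1 overlaps CAST on the opposite strand.

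Counted by overlap alone, 5 of the 9 genes (HLA-B, HLA-C, HLA-E, B2M, TAP2) had both SKA3-KD values below both NC values and 3 (TAP1, ERAP1, CALR) had both above. Over all genes tested these shares were 29.2% and 32.3%.

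**Figure D3:**
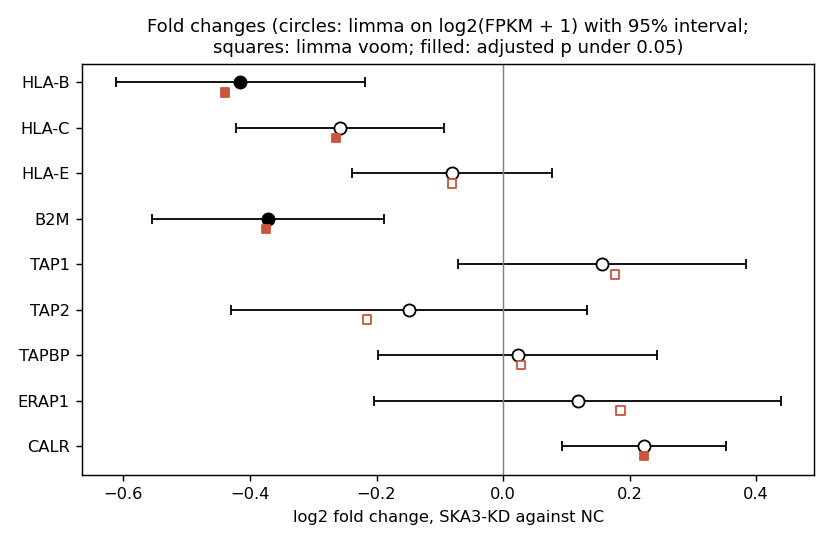
The log2 fold change of SKA3-KD against NC (horizontal axis) for the 9 genes; circles are limma on log2(FPKM + 1) with 95% intervals, squares are limma voom on recovered reads, and filled symbols have an adjusted p under 0.05. HLA-B (−0.42) and B2M (−0.37) pass in both, HLA-C (−0.26) and CALR (0.22) pass in limma voom alone, and the intervals of the remaining 5 genes include 0.

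The profile of HLA-B, HLA-C and B2M over the libraries was compared with that of every other gene tested, by the root-mean-square distance between centred log2 values over 4 libraries. The closest were AHR, the aryl hydrocarbon receptor, with 9.05, 8.76, 6.98 and 6.43 FPKM in NC 1, NC 2, SKA3-KD 1 and SKA3-KD 2 (distance 0.00912), FKBP1A, a peptidyl-prolyl isomerase, with 96.2, 94.9, 76.9 and 70.9 FPKM (distance 0.0101), and NCOA1, a nuclear receptor coactivator, with 2.24, 2.24, 1.64 and 1.42 FPKM (distance 0.0115). The likeness is a description over 4 libraries.

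The remaining genes of the pathway were taken from 11 lists with 95 genes, of which 86 were in the table and 62 passed the filter. Of these 62, 7 were lower and 4 higher by limma, where 6.11% and 6.16% of all genes tested were, and the median log2 fold change was −0.03 against 0.01. Without the filter on low values 0 of the 11 kept their calls (limma adjusted p between 0.0507 and 0.2).

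The lists closest to the heavy chains and to the loading complex held few called genes. Of 4 class I-like genes tested, 0 passed the limma threshold in either direction, although 2 (MR1 and PROCR) had an unadjusted p under 0.05 and were called lower by limma voom. MR1 is the platform that shows vitamin B metabolites to mucosal-associated T cells. It was at 3.63 and 3.52 FPKM in NC and at 2.70 and 2.91 FPKM in SKA3-KD, with the groups apart (log2 difference −0.26 ± 0.09, adjusted p = 0.121). PROCR, the endothelial protein C receptor, had a log2 difference of −0.31 (adjusted p = 0.133), and HFE, the class I-like regulator of iron uptake, one of −0.04 (adjusted p = 0.792). The median of the 4 genes was −0.28.

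Among 8 tested genes of peptide loading and endoplasmic reticulum quality control, 1 rose and 1 fell, against 6.16% and 6.11% of all genes tested. HSPA5, the chaperone BiP that binds unfolded chains, was at 393 and 420.2 FPKM in NC and at 507 and 483 FPKM in SKA3-KD (log2 fold change 0.28 ± 0.06, limma adjusted p = 0.047, but 0.0549 after median-of-ratios scaling and 0.103 without the trend). Like CALR, it had both SKA3-KD values above both NC values, as did 32.3% of all genes tested. SEC61B, a subunit of the channel through which new chains enter the endoplasmic reticulum, was at 86.8 and 90.5 FPKM against 69.4 and 61.1 FPKM and fell (−0.44 ± 0.08, limma adjusted p = 0.033, but 0.0697 without the trend). HSP90B1, another chaperone of this compartment, had a log2 difference of 0.21 that missed the threshold (adjusted p = 0.0918). Calnexin, made from CANX, which acts on heavy chains before CALR does, was at 274 and 248 FPKM in NC and at 282 and 264 FPKM in SKA3-KD, and these overlapped (adjusted p = 0.568). The ratio of CALR to CANX was 1.74 and 1.95 in NC and 2.01 and 2.09 in SKA3-KD. Of 6 trimming peptidases tested, 0 were called by limma in either direction, 0 were lower and 1 higher at an unadjusted p under 0.05, and limma voom called 1 lower and 1 higher. THOP1 and TPP2, the most abundant, had log2 differences of 0.05 and −0.04.

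Of 6 tested immunoproteasome and activator genes, 1 (PSMB8) fell, against 6.11% of all genes tested. PSMB8 is a catalytic subunit of the immunoproteasome, the interferon-inducible form that is known to favour peptides fit for class I. It was at 20.6 and 22.2 FPKM in NC 1 and NC 2 and at 14.4 and 13.0 FPKM in SKA3-KD 1 and SKA3-KD 2. The groups lay far apart for their spread, and PSMB8 fell by 36.2% (log2 fold change −0.61 ± 0.08, limma adjusted p = 0.0182). Its constitutive counterpart PSMB5 was at 42.5, 39.7, 41.4 and 39.8 FPKM in the same order, with the groups overlapping (log2 difference −0.02, adjusted p = 0.895). The ratio of PSMB8 to PSMB5 was accordingly 0.484 and 0.561 in NC and 0.347 and 0.326 in SKA3-KD. All 6 genes of the immunoproteasome list had a negative log2 difference, with a median of −0.21, but PSMB8 alone passed the limma threshold. PSMB9, named after its values were seen because it is the partner of PSMB8 and neighbour of TAP1, was at 1.47 and 1.77 FPKM against 1.28 and 0.856 FPKM (−0.35 ± 0.17, adjusted p = 0.243). PSMB10, the remaining catalytic immunosubunit, had overlapping groups and a log2 difference of −0.14 (adjusted p = 0.672). PSMB8 and PSMB9 overlap each other in the annotation, so their reads could be split. PSME3 and PSME1, activator subunits and the most abundant of the list besides PSMB8, had log2 differences of −0.03 and −0.09. Of the 3 constitutive catalytic subunits, 0 passed, with PSMB7 at 0.01 and PSMB6 at −0.17 (unadjusted p under 0.05 for PSMB6, adjusted p = 0.155).

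The transcription regulators of class I genes, 12 in all, had 1 gene past the limma threshold, as lower, against 6.11% of all genes tested. NFYC, a subunit of the CCAAT-binding factor NF-Y, was at 8.12 and 8.81 FPKM in NC and at 6.48 and 5.99 FPKM in SKA3-KD and fell (log2 fold change −0.39 ± 0.08, limma adjusted p = 0.0417, but 0.0698 without the trend). The other two subunits, NFYA and NFYB, had log2 differences of 0.13 and 0.14 (adjusted p = 0.384 and 0.42). NLRC5, the coactivator of class I transcription, was named for that role after its values were seen. It was at 4.18 and 4.32 FPKM in NC and at 3.41 and 3.45 FPKM in SKA3-KD, with tight and separate groups, and its log2 difference of −0.24 ± 0.08 missed the threshold in limma (adjusted p = 0.111) and passed it in limma voom (adjusted p = 0.0181). RFX5, which binds beside NF-Y, was at 17.0 and 16.4 FPKM against 14.6 and 14.5 FPKM (−0.19 ± 0.06, adjusted p = 0.111). RELA, the NF-kappa B subunit and most abundant regulator, had a log2 difference of 0.12 (adjusted p = 0.24).

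Of the 11 tested genes on the interferon receptor and JAK-STAT route, 2 fell and 1 rose, against 6.11% and 6.16% of all genes tested. IFNGR1, the ligand-binding chain of the interferon gamma receptor, was at 5.92 and 6.62 FPKM in NC and at 2.97 and 2.53 FPKM in SKA3-KD. It fell by 56.2% in mean FPKM (log2 fold change −0.96 ± 0.10, limma adjusted p = 0.0129). IFNAR1, a chain of the type I interferon receptor, moved the other way, from 9.85 and 10.05 FPKM to 13.5 and 14.3 FPKM (0.45 ± 0.07, limma adjusted p = 0.0224). SOCS3, a feedback inhibitor of JAK signalling, was at 19.8 and 23.2 FPKM in NC and at 14.5 and 14.6 FPKM in SKA3-KD and fell (−0.53 ± 0.09, limma adjusted p = 0.0293, but 0.0599 without the trend). The partner chains IFNGR2 and IFNAR2 had log2 differences of 0.05 and 0.06. JAK2, a kinase of the interferon gamma receptor named after its values were seen, was at 1.14 and 0.877 FPKM against 1.85 and 1.84 FPKM. Its log2 difference of 0.50 ± 0.15 missed the threshold in limma (adjusted p = 0.0876), and JAK2 passed it as higher in limma voom (adjusted p = 0.00265). STAT3 and JAK1, the most abundant genes of the list, had log2 differences of 0.01 and 0.13. Of 5 interferon ligand genes sought, 2 were in the table, and neither exceeded 0.301 FPKM in any library.

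**Figure D4:**
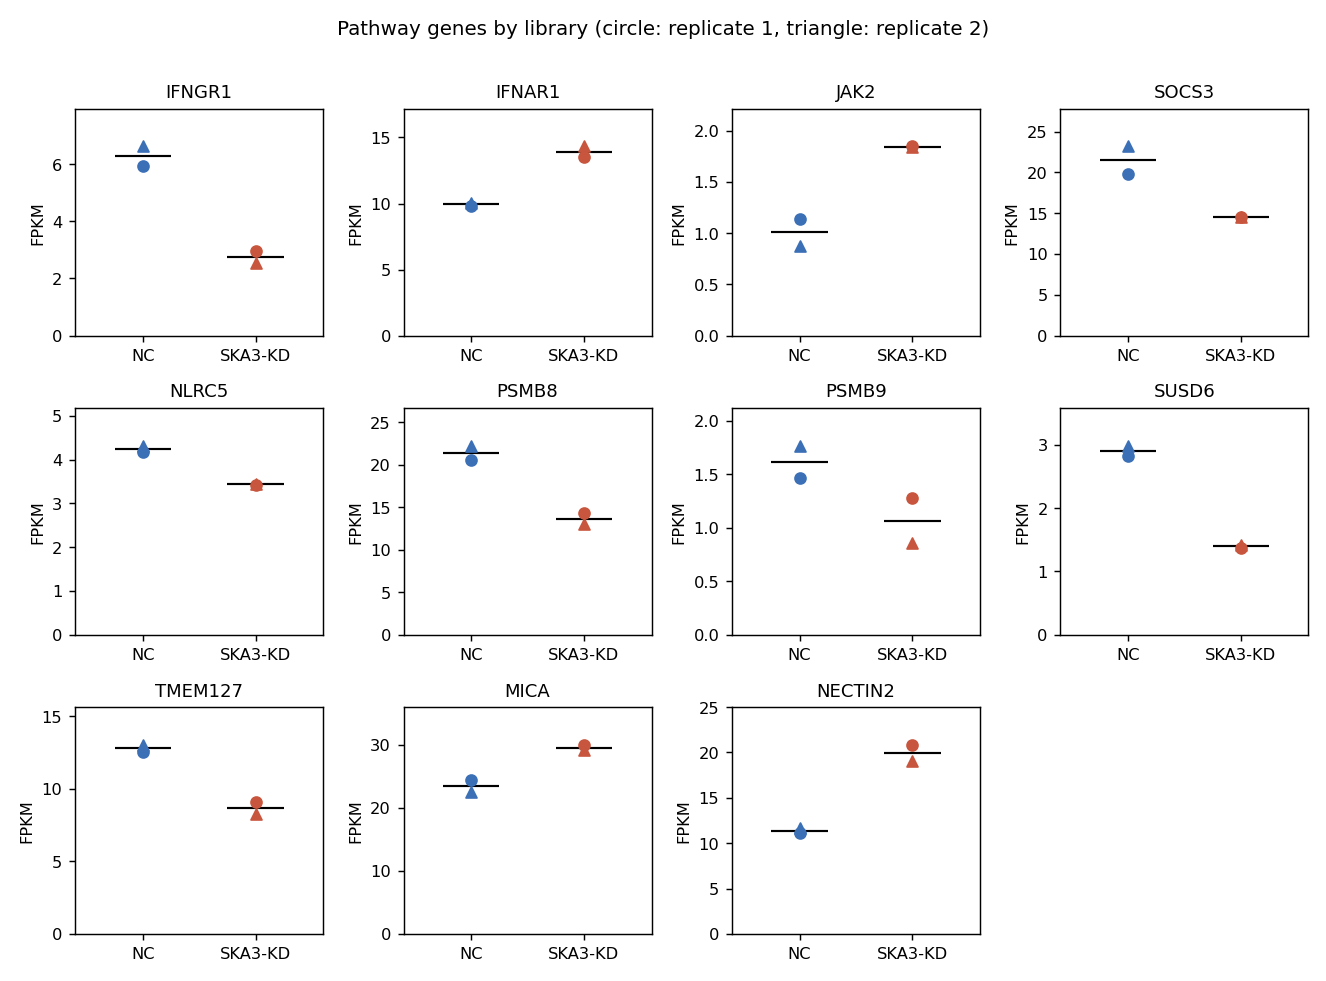
FPKM (vertical axes, from 0, a separate scale for each gene) of 11 interferon route, class I regulator, immunoproteasome, surface turnover and stress ligand genes in each library; points are libraries and bars the means of 2. IFNGR1 (5.92 and 6.62 against 2.97 and 2.53), PSMB8, SUSD6 and TMEM127 sit lower in both SKA3-KD libraries, and IFNAR1, MICA and NECTIN2 sit higher in both.

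Of the 5 tested genes listed under class I surface turnover, 2 fell. Over all genes tested 6.11% were lower. SUSD6 and TMEM127 encode membrane proteins known to form a complex that recruits the ubiquitin ligase WWP2 to class I molecules and sends them to the lysosome. SUSD6 was at 2.82 and 2.99 FPKM in NC and at 1.37 and 1.43 FPKM in SKA3-KD (log2 fold change −0.71 ± 0.11, limma adjusted p = 0.0249). TMEM127 was at 12.5 and 13.0 FPKM in NC and at 9.10 and 8.28 FPKM in SKA3-KD (−0.51 ± 0.07, limma adjusted p = 0.0222). Both genes kept the libraries of each group close together. WWP2 itself was at 4.26 and 4.63 FPKM against 3.93 and 4.03 FPKM (−0.13 ± 0.08, adjusted p = 0.342), and the protease SPPL3 had a log2 difference of 0.03.

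Among 7 tested stress and checkpoint ligands, 2 rose and 0 fell, against 6.16% and 6.11% of all genes tested. The median log2 fold change of the 7 was 0.22. MICA, a class I-like ligand that binds the activating receptor NKG2D without B2M or peptide, was at 24.5 and 22.5 FPKM in NC and at 30.0 and 29.1 FPKM in SKA3-KD (log2 fold change 0.32 ± 0.07, limma adjusted p = 0.0454, but 0.0505 after quantile normalization and 0.0871 without the trend). Both SKA3-KD values of MICA were above both NC values, as for 32.3% of all genes tested. NECTIN2, a ligand of the receptors DNAM-1 and TIGIT, rose from 11.1 and 11.6 FPKM to 20.8 and 19.1 FPKM (0.76 ± 0.07, limma adjusted p = 0.0113). MICB, the close relative of MICA with which it may share reads, was at 13.5 and 16.0 FPKM against 17.7 and 16.8 FPKM (0.22 ± 0.10, adjusted p = 0.196). PVR, another DNAM-1 ligand, had a log2 difference of 0.10. CD274, which encodes the checkpoint ligand PD-L1, stayed under the filter, at 0.351 to 0.732 FPKM. Of 13 class II genes and regulators sought, 9 were in the table and 0 passed the filter, the highest value in any library being 1.21 FPKM.

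**Figure D5:**
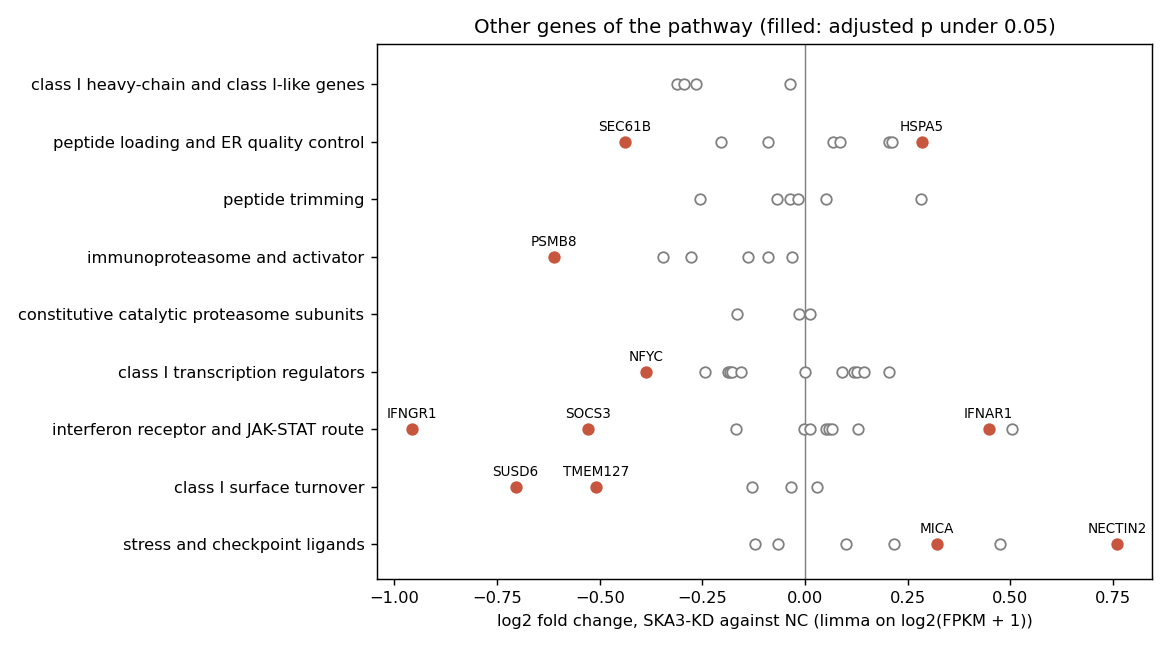
The log2 fold change of SKA3-KD against NC (horizontal axis) for the 62 tested genes of the pathway lists, 1 list in each row; each point is 1 gene, and filled, named points have a limma adjusted p under 0.05. Of these, 7 lie to the left, from IFNGR1 (−0.96) to NFYC (−0.39), and 4 to the right, from HSPA5 (0.28) to NECTIN2 (0.76).

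With 1 library left out, limma called 0 of the 9 class I presentation genes in either direction, while 2 or 3 of them were lower and 0 to 2 higher at an unadjusted p under 0.05. Without NC 1 or NC 2 it called 0 of all genes in either direction, SKA3 included (adjusted p = 0.066 and 0.06), while 1486 and 1555 genes were lower and 1638 and 1797 higher at an unadjusted p under 0.05. Of the 11 called pathway genes, NECTIN2 alone kept its call in any such fit, without SKA3-KD 2 (adjusted p = 0.0419), and the log2 fold change of each of the 11 kept its sign in all 4 fits. None of the values is a protein measurement, and surface HLA class I was not measured in these libraries.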

How the data were processed

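RNA-seq of 4 TU-177 cultures (2 NC, 2 SKA3-KD) was used, grouped by the sample labels. The authors deposited FPKM values per gene, already divided by gene length and library size, and the submitters' processing notes name hg19, HISAT2, Bowtie2 2.2.8, StringTie 1.3.1 and Cuffdiff 2.1.1, without their roles. Low FPKM values are whole multiples of the value of 1 read. With a tolerance of 0.02 reads, whole reads were found for 69.0% of genes above 0 at the GENCODE 29 length and for 99.97% when other lengths were allowed. The lengths, and so the reads, are inferred, and the reads summed to between 106.07% and 107.77% of the library sizes.

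SKA3-KD was compared with NC by limma 3.58.1 in R 4.3.3 (lmFit, eBayes with trend) on log2(FPKM + 1) for the 12645 genes whose mean FPKM reached 1, with Benjamini-Hochberg adjustment over all of them and a two-sided threshold of 0.05. Fold changes are on that scale, which understates changes of low genes. An exact 0 is only a gene listed at 0. Alternatives changed the filter (none, or a mean of 5 FPKM), the pseudocount (0.1), the scaling (quantile normalization, or median of ratios), the model (no trend, a replicate block, or limma voom on recovered reads) and the libraries (each left out in turn). On simulated data the main step made more false calls than its threshold would allow. Replicates differed beyond sampling noise (chi-square per degree of freedom 3.95 and 3.89). Text beyond the 9 genes names every pathway gene past the threshold, up to 4 per list, the 2 most abundant besides per list, SKA3, and the 3 genes with the most similar profile. Pathway genes named outside this rule were MR1, PSMB5, PSMB9, PSMB10, NFYA, NFYB, NLRC5, IFNGR2, IFNAR2, JAK2 and CD274. Members and lists were chosen with earlier results of these data known. Other steps used pandas 2.3.3, numpy 2.4.6 and matplotlib 3.10.9 in Python 3.11.15. Reference sequences of HLA genes may differ from the alleles of this line, and the effect on mapping was not tested. The result of 1 list gene is not reported here.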

Additional observations from a re-analysis of the deposited data

How the results depend on the processing

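The 2 lower genes among the 9 (HLA-B and B2M) became 0 without the filter, 0 without the trend and 1 after quantile normalization, and 0 to 0 with 1 library left out. The count of higher genes, 0, became 1 (CALR) with a pseudocount of 0.1, a mean FPKM of at least 5, quantile normalization, the replicate block and limma voom, and was 0 to 0 with 1 library left out. Over all genes, the 772 lower became 81 without the filter, 381 without the trend, 1537 by limma voom and 0 to 135 with 1 library left out (0 without NC 1, 0 without NC 2, 53 without SKA3-KD 1, 135 without SKA3-KD 2). The 779 higher became 48, 312, 1717 and 0 to 46 (0, 0, 13 and 46 in the same order). Leaving out a library leaves its group with 1 library that is assumed to vary like the other group. With 1 library left out, TAPBP ranged from −0.066 to 0.112 and was reversed without NC 1 (−0.066) and without SKA3-KD 2 (−0.035). Under the alternatives with all libraries HLA-B passed in 6 of 8, B2M in 5, CALR in 5 and HLA-C in 2, with no change of sign. Of the 11 called pathway genes, 11 missed the threshold without the filter, HSPA5, SEC61B, NFYC, SOCS3 and MICA also without the trend, HSPA5 with median-of-ratios scaling, MICA after quantile normalization and NFYC with the replicate block (adjusted p = 0.058). The causes were not tested. The labels do not say whether NC and SKA3-KD libraries with the same replicate number were handled together. The differences between replicates in the 2 groups had a correlation of 0.0973 over 12645 genes, which does not settle this. With the number as a replicate block 965 genes were lower and 1002 higher, 2 and 1 of the 9. Among the 9 genes, depth limits ERAP1 and TAP2, with at most 259 recovered reads per library. It limits several named pathway genes as well. In NC 1, NC 2, SKA3-KD 1 and SKA3-KD 2, IFNGR1 had 190, 160, 81 and 80 recovered reads and SUSD6 had 197, 157, 81 and 98. JAK2 had 83, 48, 114 and 132 in the same order, and PSMB9 had 54, 49, 40 and 31.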
